A study of Arabidopsis thaliana with 6 samples.

Results

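The 37 loci described here encode the machinery with which Arabidopsis cells copy their DNA, enter and leave mitosis and build the wall between daughter cells. They were taken by locus identifier from a given list of cyclins, B-type cyclin-dependent kinases (CDKs), replication proteins, Aurora kinases, spindle checkpoint proteins and cytokinesis proteins. All 37 had a row in a deposited table of estimated read counts for 27628 transcript identifiers, and all 37 were among the 20827 that passed the filter on low counts. The libraries were made from Arabidopsis thaliana siliques, which are the fruits with their seeds, 3 of them labelled shp1 shp2 mrpl1 and 3 from wild type (WT) plants. SHP1 and SHP2 encode SHATTERPROOF MADS-domain factors of the fruit's valve margin, and the labels give neither alleles nor the locus of mrpl1. Both groups were grown on Murashige and Skoog medium with sucrose under long days, and the age of the siliques is not given in the sources used here.

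Estimated counts summed to 20563995, 17857873 and 20957661 in the mutant-labelled libraries and to 20883220, 21603816 and 19969915 in the WT libraries. SHP1 RNA fell in the mutant-labelled libraries (log2 fold change -0.51, edgeR adjusted p = 0.00242), whereas SHP2 (log2 fold change -0.01, edgeR adjusted p = 0.937) and AT2G42710, an L1-family ribosomal protein gene taken as the MRPL1 candidate (log2 fold change 0.24, edgeR adjusted p = 0.172), were not called. A transcript count does not show whether a protein is made, so the mutant libraries are named by their label throughout. Replicate 1 stood apart in each group: by chi-square per degree of freedom over genes it lay 8.79 and 7.40 from its mates in the mutant-labelled group and 11.5 and 11.6 in WT, against 2.81 between mutant-labelled replicates 2 and 3 and 2.49 between WT replicates 2 and 3. Mutant-labelled replicate 1 lay 15.7 and 15.2 from WT replicates 2 and 3, nearer than mutant-labelled replicate 2 (23.85 and 21.8) or replicate 3. WT replicate 1 lay 17.9 and 16.8 from mutant-labelled replicates 2 and 3, nearer to them than its mates were. The libraries numbered 1 lay 25.4 apart, the largest distance of any pair. Each replicate 1 thus lay nearer than its mates to replicates 2 and 3 of the other group, but farthest from the other replicate 1. This limits the comparison, and the cause was not tested. Separate plants are not stated for the libraries of either group, so every p-value reflects how far these libraries vary, and that variation may be technical. A silique mixes wall, seed coat, endosperm and embryo, and in such bulk tissue a change in the share of dividing cells cannot be told apart from a change in RNA per cell.

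Plant cells pass through the division cycle by pairing cyclins with CDKs. D-type cyclins act at the entry into the cycle, A-type cyclins from S phase onward, and B-type cyclins with the plant-specific B-type CDKs at mitosis. The genes of mitosis and cytokinesis are known for a shared promoter element, the mitosis-specific activator (MSA) element bound by MYB3R factors, and many replication genes for sites of E2F factors. After the chromosomes have separated, vesicles are delivered along a microtubule array, the phragmoplast, and fuse into the cell plate. In a growing silique the seed is a main site of division, first in the endosperm and then in the embryo.

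RNA of 5 of the 37 loci rose in the mutant-labelled libraries: KNOLLE, PLEIADE, MAD2, CDKB2;1 and AUR3. All 5 act in mitosis or cytokinesis, but 24 of the 37 loci are neither replication loci nor D-type cyclins. Whether the calls favour any role was not tested. The fold changes of the 5 lay between 1.26 for CDKB2;1 and 1.53 for AUR3. None of the 37 was called lower by edgeR, and none had an unadjusted p under 0.05 in that direction. The 5 called higher were 13.5% of these loci, against 4.89% called higher over all genes tested, and 0 were called lower, against 4.07% over all genes tested. With CDKB1;1 and CYCD3;2 added, 7 of the loci (18.9%) were higher at an unadjusted p under 0.05, against 11.3% of all genes tested, of which 10.5% were lower at that threshold. The DESeq2 test called 3 higher (KNOLLE, PLEIADE and MAD2) and 0 lower, against 4.11% and 3.45% of all genes with an adjusted p. Under limma voom with quality weights 7 were called higher and 1 lower, the replication licensing gene CDT1A, against 10.3% and 9.54% of all genes tested.

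The number called depended on which libraries entered. Without mutant-labelled replicate 1 it was 5, and without WT replicate 1 it was 6, where 5.44% and 7.29% of all genes tested were called higher. Without mutant-labelled replicate 2 or 3 it was 2, beside 3.3% and 2.75% of all genes. Without WT replicate 2 it was 3 and without WT replicate 3 it was 2, beside 3.18% and 2.89% of all genes. With both libraries numbered 1 left out, 8 loci were called higher (21.6%) and CDT1A lower (2.7%), against 15.3% and 15.8% of all genes tested, so many more genes were called in that fit. KNOLLE and PLEIADE were called with any 1 library left out. MAD2 was not called without mutant-labelled replicate 2 or 3 or WT replicate 3, where its edgeR adjusted p reached at most 0.0974. CDKB2;1 and AUR3 were not called without any 1 of mutant-labelled replicates 2 and 3 and WT replicates 2 and 3, with an edgeR adjusted p of up to 0.131 for CDKB2;1 and 0.139 for AUR3.

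Beyond the calls, 29 of the 37 loci had a log2 fold change above 0 (78.4%, against 49.7% of all genes tested), and the median was 0.13, against -0.0016 over all genes tested. In 9 loci (24.3%) every mutant-labelled library lay above every WT library, which held for 13.6% of all genes tested. The opposite held for none of the 37 loci and for 12.3% of all genes tested. The 4 loci with separated groups that were not called were CDKB1;1, CDKB2;2, PCNA2 and MCM7.

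**Figure D1:**
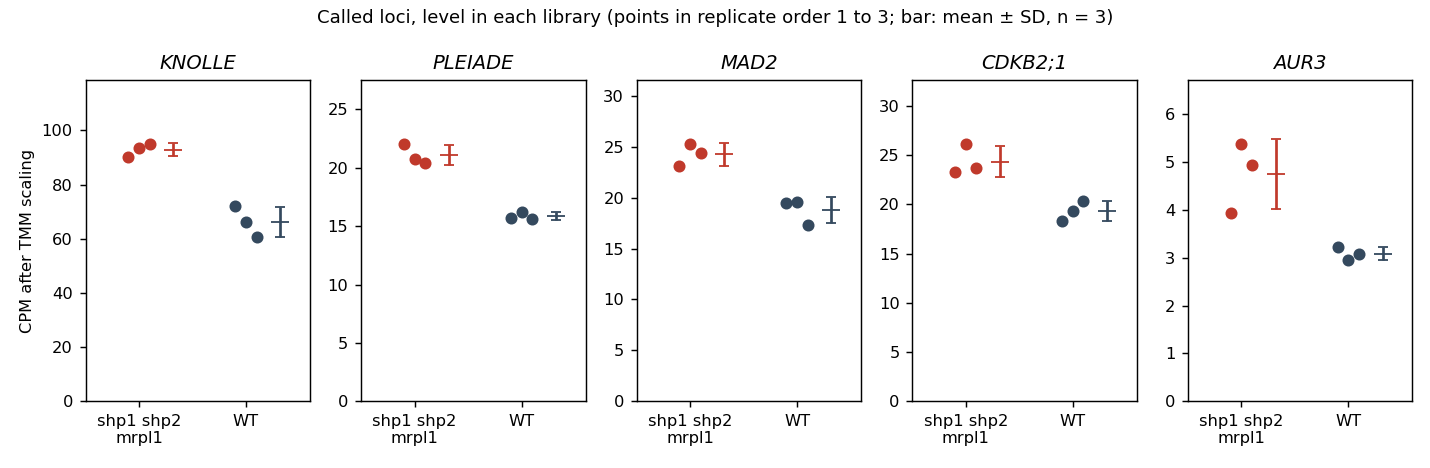
Level of the 5 called loci in each library, in CPM (counts scaled to library size, after TMM scaling) on axes that start at 0, with the mutant-labelled libraries left of WT. Points run from replicate 1 to 3, and the bars give mean ± SD (n = 3); in each panel the lowest mutant-labelled library lies above the highest WT library, from 3.93 against 3.22 CPM for AUR3 to 90.3 against 71.9 CPM for KNOLLE.

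The 250 bases before the annotated start of KNOLLE, PLEIADE, MAD2 and AUR3 are shown here because their RNA levels carry the result. They are written 5′ to 3′ on the gene's own strand, from RefSeq TAIR10.1, with the letters of the MSA core, AACGG or its reverse complement CCGTT, in capitals.
KNOLLE, chr1:2711001-2711250, minus strand: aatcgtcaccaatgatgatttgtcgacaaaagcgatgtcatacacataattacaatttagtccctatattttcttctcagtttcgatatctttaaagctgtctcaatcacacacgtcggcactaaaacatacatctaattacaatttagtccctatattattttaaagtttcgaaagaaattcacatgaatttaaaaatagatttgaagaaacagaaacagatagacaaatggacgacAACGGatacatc
PLEIADE, chr5:20964538-20964787, minus strand: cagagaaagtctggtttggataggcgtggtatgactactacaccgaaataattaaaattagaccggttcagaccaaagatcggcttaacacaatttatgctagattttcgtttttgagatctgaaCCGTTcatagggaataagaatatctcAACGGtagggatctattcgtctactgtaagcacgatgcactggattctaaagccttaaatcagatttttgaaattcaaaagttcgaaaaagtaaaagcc
MAD2, chr3:9502806-9503055, plus strand: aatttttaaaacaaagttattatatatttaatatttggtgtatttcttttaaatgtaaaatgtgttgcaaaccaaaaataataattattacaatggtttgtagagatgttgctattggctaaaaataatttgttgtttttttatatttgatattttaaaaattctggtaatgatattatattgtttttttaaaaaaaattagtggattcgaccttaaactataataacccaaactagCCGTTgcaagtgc
AUR3, chr2:18749216-18749465, minus strand: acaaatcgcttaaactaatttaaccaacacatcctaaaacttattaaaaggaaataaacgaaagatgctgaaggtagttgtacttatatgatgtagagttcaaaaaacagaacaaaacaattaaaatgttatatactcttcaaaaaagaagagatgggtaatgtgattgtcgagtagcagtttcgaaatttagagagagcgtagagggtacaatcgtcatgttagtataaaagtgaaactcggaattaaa
KNOLLE and MAD2 each hold 1 match close to the annotated start, PLEIADE holds 2 in opposite orientation, and AUR3 holds none in this window. None of these 4 promoters holds any of the E2F letters searched, TTTCCCGC, TTTGGCGC, TTTCGCGC and TTTGCCGC with their reverse complements. A match of letters is a description and not a measured binding site.

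Cytokinesis was the role with the highest median log2 fold change, 0.41 over 3 loci, 2 of them called. KNOLLE (AT1G08560, SYP111 in the reference), the syntaxin that fuses vesicles into the cell plate, lies at chr1:2709525-2711000 on the minus strand with 2 exons. It measured 90.3, 93.3 and 95.0 CPM in the mutant-labelled libraries and 71.9, 66.2 and 60.6 CPM in WT. The groups were well separated, the gap between them being wider than the spread inside either. KNOLLE was 1.40-fold higher in the mutant-labelled libraries (log2 fold change 0.49, SE 0.076, edgeR adjusted p = 0.00126), and it was called under all 16 processing alternatives, with log2 fold changes of 0.43 to 0.57.

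PLEIADE (AT5G51600, also MAP65-3), which cross-links the antiparallel microtubules in the midzone of the phragmoplast, lies at chr5:20960779-20964537 on the minus strand with 12 exons. Its level was 22.0, 20.8 and 20.4 CPM in the mutant-labelled libraries and 15.7, 16.2 and 15.7 CPM in WT. The WT libraries were nearly equal and all stood below the mutant-labelled ones. PLEIADE rose 1.33-fold (log2 fold change 0.41, SE 0.084, edgeR adjusted p = 0.0077). HINKEL (AT1G18370), the kinesin needed for the phragmoplast to expand, measured 19.4, 16.6 and 16.4 CPM in the mutant-labelled libraries and 14.3, 15.6 and 19.3 CPM in WT. Its groups overlapped and it was not called (log2 fold change 0.10, 95% interval -0.16 to 0.35, edgeR adjusted p = 0.693). Whether HINKEL differs from KNOLLE or PLEIADE was not tested. The 3 cytokinesis loci summed to 106.1, 105.0 and 104.4 TPM, a level scaled by transcript length, in the mutant-labelled libraries and to 78.4, 77.3 and 73.1 TPM in WT, a sum made mostly of KNOLLE.

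MAD2 (AT3G25980), a spindle checkpoint protein that delays anaphase until the chromosomes are attached, lies at chr3:9503056-9504680 on the plus strand with 7 exons. It measured 23.1, 25.2 and 24.4 CPM in the mutant-labelled libraries and 19.5, 19.5 and 17.3 CPM in WT, with no overlap. MAD2 was 1.29-fold higher (log2 fold change 0.37, SE 0.086, edgeR adjusted p = 0.0169). BUB3.1 (AT3G19590), another checkpoint protein, had 14.8, 15.8 and 17.1 CPM in the mutant-labelled libraries and 15.5, 12.4 and 13.0 CPM in WT. WT replicate 1 lay inside the mutant-labelled range, and BUB3.1 was not called (log2 fold change 0.22, 95% interval -0.01 to 0.45, edgeR adjusted p = 0.255).

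CDC20.1 (AT4G33270) and CDC20.2 (AT4G33260) activate the anaphase-promoting complex, which MAD2 and the other checkpoint proteins hold back. They are neighbouring near-copies, sharing 643 of their 50-base windows, 31.4% of those of CDC20.1 and 34.0% of those of CDC20.2. Their deposited counts were fractional in all 6 libraries and summed to a whole number in each: 1257, 1094 and 1225 in the mutant-labelled libraries and 1048, 1280 and 1265 in WT. CDC20.1 took 67.8% to 71.9% of the sum in the mutant-labelled libraries and 68.6% to 73.7% in WT. Reads were thus divided between the pair, so the levels of either copy alone are uncertain. Neither was called, CDC20.1 having a log2 fold change of 0.01 (95% interval -0.18 to 0.20) and CDC20.2 of 0.07 (95% interval -0.17 to 0.32).

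AUR3 (AT2G45490), a beta-type Aurora kinase known for its place at centromeres, lies at chr2:18747509-18749215 on the minus strand with 6 exons. It had the largest log2 fold change of the 37 loci and a low level, with 82, 98 and 103 reads in the mutant-labelled libraries and 66, 63 and 61 in WT. Scaled to CPM these were 3.93, 5.37 and 4.92 in the mutant-labelled libraries and 3.22, 2.95 and 3.08 in WT. Mutant-labelled replicate 1 was the nearest to WT, without overlap. AUR3 was 1.53-fold higher with a wide 95% interval of 1.20 to 1.96 (log2 fold change 0.62, SE 0.165, edgeR adjusted p = 0.0336).

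The alpha-type kinases AUR1 (AT4G32830) and AUR2 (AT2G25880), which act on the spindle and the plane of division, were not called. AUR1 measured 12.2, 11.1 and 12.1 CPM in the mutant-labelled libraries and 8.44, 11.3 and 11.5 CPM in WT, where replicate 1 stood low (log2 fold change 0.18, 95% interval -0.09 to 0.45). AUR2 averaged 10.6 ± 0.244 CPM in the mutant-labelled libraries and 10.8 ± 0.937 CPM in WT (SD, n = 3 each). Genes on the opposite strand overlap AUR2 (AT2G25890, over 877 bases) and AUR1 (AT4G32840, over 290 bases). Whether the counting used strand is not given, so the levels of AUR1 and AUR2 are uncertain. Whether AUR3 differs in its response from AUR1 or AUR2 was not tested.

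All 4 B-type CDKs had a log2 fold change above 0, with a median of 0.29, and in 3 of them the groups did not overlap. CDKB2;1 (AT1G76540), one of the pair of CDKB2 kinases needed for an ordered shoot meristem, lies at chr1:28720328-28722550 on the minus strand with 8 exons. It had 23.3, 26.1 and 23.7 CPM in the mutant-labelled libraries and 18.3, 19.3 and 20.3 CPM in WT. Every mutant-labelled library lay above the highest WT library. CDKB2;1 rose 1.26-fold (log2 fold change 0.33, SE 0.086, edgeR adjusted p = 0.0285).

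CDKB1;1 (AT3G54180), known for divisions of the stomatal lineage and for holding back endoreduplication, measured 10.1, 10.2 and 8.65 CPM in the mutant-labelled libraries and 7.37, 8.29 and 7.57 CPM in WT. Its groups were separate but by little, and it missed the threshold (log2 fold change 0.32, SE 0.115, edgeR adjusted p = 0.115). CDKB2;2 (AT1G20930), the partner of CDKB2;1, was also separate without a call, at 11.4 ± 0.671 CPM in the mutant-labelled libraries and 9.90 ± 0.393 CPM in WT (log2 fold change 0.20, edgeR adjusted p = 0.262). CDKB1;2 (AT2G38620) averaged 6.53 ± 0.343 CPM in the mutant-labelled libraries and 5.41 ± 1.02 CPM in WT, with WT replicate 1 near the mutant-labelled level (log2 fold change 0.27, edgeR adjusted p = 0.322). Summed per length, the 4 kinases came to 50.5, 53.8 and 47.4 TPM in the mutant-labelled libraries and 39.3, 41.4 and 42.0 TPM in WT, again without overlap.

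The B-type cyclins, the partners of these kinases, were not called, and the groups overlapped in each of the 7. Their log2 fold changes ran from -0.01 to 0.25 with a median of 0.16, and 6 of 7 were above 0. CYCB1;1 (AT4G37490), widely used as a reporter of cells entering mitosis, measured 6.91, 6.24 and 5.40 CPM in the mutant-labelled libraries and 6.58, 5.67 and 6.41 CPM in WT. These libraries were interleaved, and the 95% interval of its fold change ran from 0.812 to 1.22.

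Among the other B1 cyclins, CYCB1;2 (AT5G06150) averaged 17.9 ± 1.36 CPM in the mutant-labelled libraries and 16.6 ± 0.579 CPM in WT. CYCB1;3 (AT3G11520) had a log2 fold change of 0.20 (95% interval -0.07 to 0.46) and CYCB1;4 (AT2G26760) of 0.14 (95% interval -0.09 to 0.38). Of the B2 cyclins, CYCB2;1 (AT2G17620), at 2.39 ± 0.442 CPM in the mutant-labelled libraries and 2.00 ± 0.209 CPM in WT, had the highest log2 fold change of the 7, 0.25, and the widest interval, -0.20 to 0.70. CYCB2;2 (AT4G35620) and CYCB2;4 (AT1G76310) had log2 fold changes of 0.23 and 0.16. The 7 summed to 43.5, 43.1 and 42.9 TPM in the mutant-labelled libraries and to 38.4, 39.5 and 39.0 TPM in WT. The sums were separate although no member was. TPM sums were also separate for the Aurora kinases, the spindle checkpoint and CDC20 loci and the D-type cyclins. They overlapped for the A-type cyclins and the replication loci. How often sums of other genes separate was not tested.

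None of the 3 A-type cyclins was called. CYCA1;1 (AT1G44110) measured 9.98, 10.9 and 10.6 CPM in the mutant-labelled libraries and 10.3, 8.66 and 8.63 CPM in WT, where replicate 1 overlapped (log2 fold change 0.19, edgeR adjusted p = 0.359). CYCA2;3 (AT1G15570), a brake on endoreduplication, averaged 6.10 ± 0.694 CPM in the mutant-labelled libraries and 6.46 ± 0.697 CPM in WT (log2 fold change -0.09). CYCA3;1 (AT5G43080), of the S-phase group, was low, at 2.21 ± 0.12 CPM in the mutant-labelled libraries and 2.17 ± 0.445 CPM in WT.

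Among the D-type cyclins, CYCD3;2 (AT5G67260) came nearest to a call. These cyclins drive cells into the cycle and keep them dividing, and the CYCD3 genes respond to cytokinin. CYCD3;2 measured 33.1, 36.8 and 36.7 CPM in the mutant-labelled libraries and 33.3, 27.9 and 27.4 CPM in WT. The libraries numbered 1 were at the same level, and replicates 2 and 3 were far apart between the groups. The difference for CYCD3;2 was 0.27 on the log2 scale (SE 0.0908, edgeR adjusted p = 0.094), and CYCD3;2 was called when counts were corrected for transcript length. CYCD3;3 (AT3G50070) averaged 22.9 ± 2.36 CPM in the mutant-labelled libraries and 21.4 ± 2.27 CPM in WT, and CYCD3;1 (AT4G34160) averaged 8.11 ± 0.701 CPM in the mutant-labelled libraries and 8.08 ± 0.356 CPM in WT.

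The 10 replication loci divided evenly, 5 with a log2 fold change above 0 and 5 below, and their median was 0.00027. None was called by edgeR or DESeq2, none had an unadjusted p under 0.05, and limma voom called CDT1A lower. MCM2 to MCM7 encode the subunits of the ring-shaped replicative helicase. Of these, MCM3 (AT5G46280), MCM4 (AT2G16440) and MCM7 (AT4G02060, also PROLIFERA) were above 0, at 0.13, 0.03 and 0.07. MCM2 (AT1G44900), MCM5 (AT2G07690) and MCM6 (AT5G44635) were below, at -0.12, -0.13 and -0.03. The 95% intervals of all 6 lay within fold changes of 0.777 to 1.33. MCM3 spread most in the mutant-labelled libraries, at 18.9, 15.6 and 12.7 CPM, against 14.1, 14.7 and 14.3 CPM in WT, and the WT libraries lay inside the mutant-labelled range. MCM7 was narrow in both, at 17.8, 18.6 and 18.0 CPM in the mutant-labelled libraries and 16.9, 17.6 and 17.3 CPM in WT, with a small gap between the groups.

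The sliding clamp that tethers the polymerase is encoded by PCNA1 (AT1G07370) and PCNA2 (AT2G29570). PCNA1 averaged 12.2 ± 0.418 CPM in the mutant-labelled libraries and 11.8 ± 1.48 CPM in WT. PCNA2 measured 14.6, 13.4 and 13.8 CPM in the mutant-labelled libraries and 13.0, 12.4 and 12.4 CPM in WT, separate without a call (log2 fold change 0.14, edgeR adjusted p = 0.402). CDT1A and CDC6 load the helicase at origins. CDT1A (AT2G31270) had the lowest log2 fold change of the 37 loci, -0.26 (95% interval -0.56 to 0.05, edgeR adjusted p = 0.319), at 10.7, 8.05 and 8.60 CPM in the mutant-labelled libraries and 9.02, 12.0 and 11.7 CPM in WT. Replicate 1 was the highest of the mutant-labelled libraries and the lowest of the WT libraries. CDC6 (AT2G29680) had few reads, at 2.30, 1.15 and 1.53 CPM in the mutant-labelled libraries and 1.71, 1.78 and 1.77 CPM in WT (log2 fold change -0.06, 95% interval -0.63 to 0.50). Mutant-labelled replicate 1 was high for several of these genes, the median deviation of the 10 loci from its 2 mates being 0.14 on the log2 scale.

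**Figure D2:**
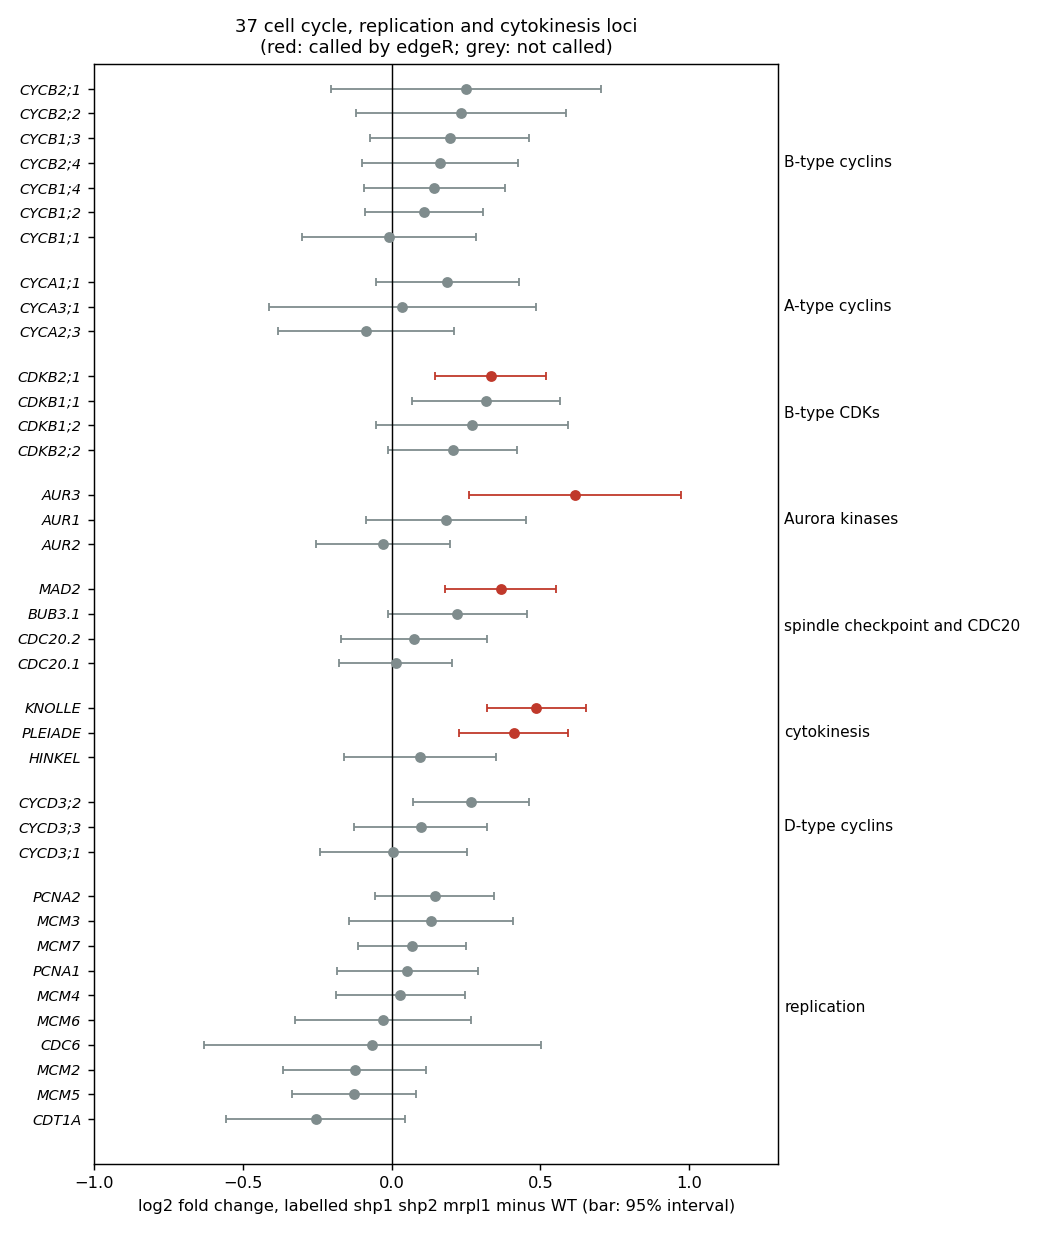
Log2 fold change (x axis, mutant-labelled minus WT) of each of the 37 loci, grouped by role from top to bottom, with 95% intervals and called loci in red. The 5 called loci lie at 0.33 to 0.62, while the 10 replication loci lie on both sides of 0.

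For comparison with the called genes, 4 more promoters are shown, in the same orientation and with the same marks. CYCA1;1 and CDT1A have the smallest adjusted p of the cyclins A and B and of the replication loci. CYCB1;2 and MCM5 were chosen after their matches were seen, as promoters rich in the MSA core and with an E2F match, which is also in capitals.
CYCB1;2, chr5:1861704-1861953, minus strand: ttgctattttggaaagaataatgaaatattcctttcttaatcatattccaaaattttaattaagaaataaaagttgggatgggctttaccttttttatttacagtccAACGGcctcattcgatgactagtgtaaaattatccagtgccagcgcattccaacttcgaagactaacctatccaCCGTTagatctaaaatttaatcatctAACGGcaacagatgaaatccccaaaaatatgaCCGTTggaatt
CYCA1;1, chr1:16777353-16777602, minus strand: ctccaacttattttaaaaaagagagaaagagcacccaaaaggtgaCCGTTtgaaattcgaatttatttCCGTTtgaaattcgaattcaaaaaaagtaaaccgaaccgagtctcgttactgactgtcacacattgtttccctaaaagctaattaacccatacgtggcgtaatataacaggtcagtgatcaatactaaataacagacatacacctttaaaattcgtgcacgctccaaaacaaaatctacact
MCM5, chr2:3527501-3527750, minus strand: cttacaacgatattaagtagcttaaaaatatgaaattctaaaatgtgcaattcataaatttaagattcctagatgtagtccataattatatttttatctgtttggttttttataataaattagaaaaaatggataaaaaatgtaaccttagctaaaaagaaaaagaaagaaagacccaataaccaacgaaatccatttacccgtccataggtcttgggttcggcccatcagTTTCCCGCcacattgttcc
CDT1A, chr2:13328612-13328861, plus strand: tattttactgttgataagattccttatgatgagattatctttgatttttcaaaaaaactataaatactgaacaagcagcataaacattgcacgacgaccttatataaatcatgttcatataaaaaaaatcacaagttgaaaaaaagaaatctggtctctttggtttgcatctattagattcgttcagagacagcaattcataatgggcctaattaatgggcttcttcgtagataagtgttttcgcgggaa
CYCB1;2 holds 4 matches to the MSA core and CYCA1;1 a pair within a short repeat. MCM5 holds TTTCCCGC close to its annotated start, and CDT1A holds no complete match of either kind in this window. The CDT1A window ends in gcgggaa, the beginning of the searched GCGGGAAA, so a match across its end would be missed.

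The letters fell by role. The MSA core was present in 17 of the 37 promoters (46.0%), against 4463 of 20732 promoters of tested genes (21.5%). It was in 5 of 7 B-type cyclins, each with at least 3 matches, a number found in 0.844% of promoters of tested genes, and in all 3 cytokinesis loci. Of the replication loci 1 of 10 held it, MCM7. E2F letters were present in 6 of 37 promoters (16.2%), against 298 of 20732 (1.44%): 5 of the 6 MCM genes, MCM2 to MCM6, and CYCD3;3. Among the 5 called loci 3 held the MSA core (60.0%), against 46.0% of all 37, a difference that was not tested. No promoter of the 37 had overlapping matches of both kinds, and 14 had neither.

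**Figure D3:**
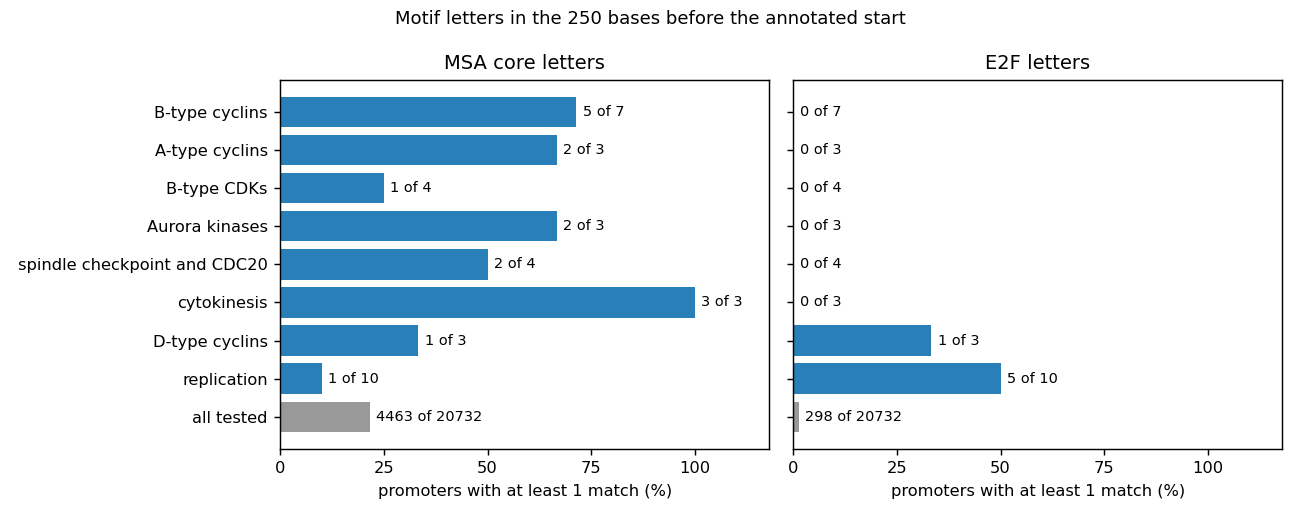
Share of promoters (x axis, percent) with at least 1 match to the MSA core letters (left) or the E2F letters (right) in the 250 bases before the annotated start, for each role and, in grey, for all tested genes with a promoter. The MSA core was in 5 of 7 B-type cyclins and 1 of 10 replication loci, and E2F letters in 0 of 7 and 5 of 10.

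Per transcript length, KNOLLE RNA was by far the most abundant of the 37, at 88.3 ± 0.539 TPM in the mutant-labelled libraries and 62.5 ± 4.01 TPM in WT (SD, n = 3 each). CYCD3;2 followed at 32.6 ± 1.36 TPM in the mutant-labelled libraries and 26.9 ± 2.22 TPM in WT. MAD2 was next among the mutant-labelled libraries, at 29.8 ± 1.07 TPM, against 22.9 ± 1.39 TPM in WT, where it did not differ beyond its spread from CDC20.1 at 25.8 ± 3.59 TPM. The MCM genes were close to one another, from 4.38 to 9.16 TPM in the mutant-labelled libraries and from 4.42 to 8.70 TPM in WT. At the low end stood CDC6, at 1.34 ± 0.496 TPM in the mutant-labelled libraries and 1.40 ± 0.0662 TPM in WT. The median of the 37 loci was 7.58 TPM in the mutant-labelled libraries and 6.68 TPM in WT, below the medians of all genes tested, 12.1 TPM in the mutant-labelled libraries and 12.0 TPM in WT.

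**Figure D4:**
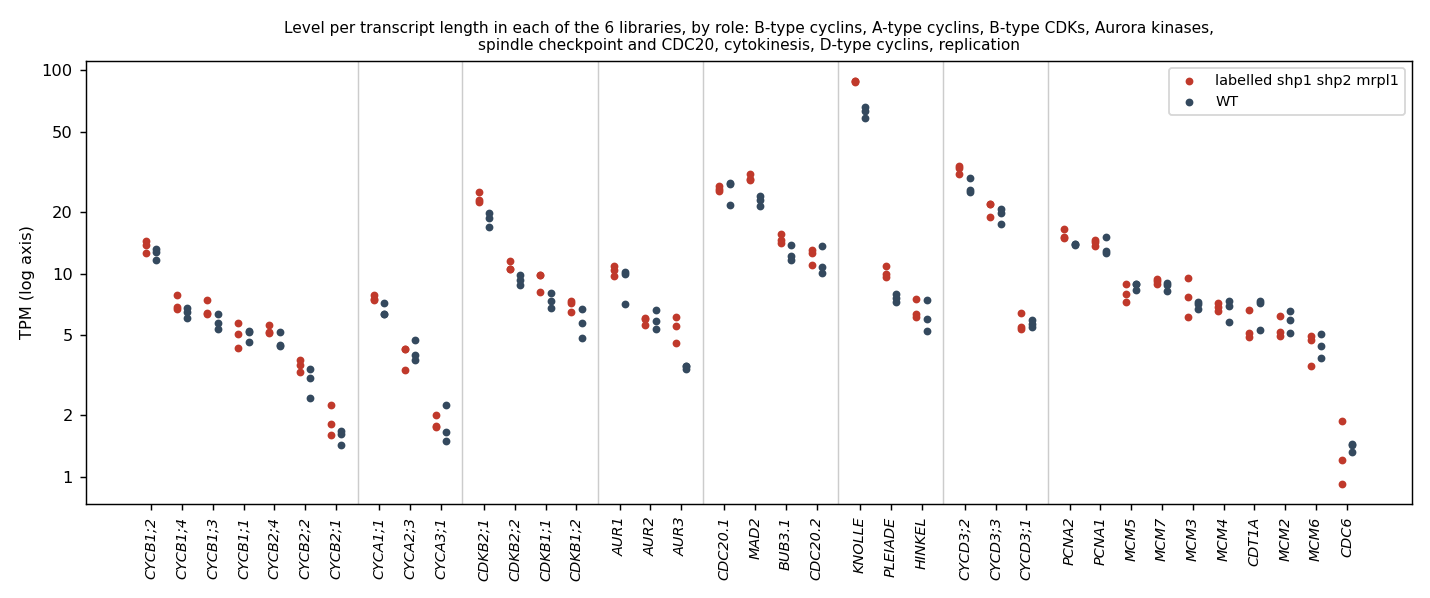
Level of each of the 37 loci in each library, in TPM on a log axis, grouped by role, with mutant-labelled libraries in red left of WT in dark blue. KNOLLE stands highest, at 88.3 TPM on average in the mutant-labelled libraries against 62.5 TPM in WT, and CDC6 lowest.

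Transcript length moved with the fold changes. Over the 20730 tested genes with a length, the Spearman correlation of log2 fold change with transcript length was -0.25, and over the 37 loci it was -0.60; genes share the same 6 libraries, so both are descriptions. The B-type CDKs had a median transcript length of 1373 bases, and the replication loci one of 2642 bases. With counts corrected for length, 6 loci were called higher (16.2%) and 0 lower, CYCD3;2 joining the 5, while 8.12% of all genes tested were called higher and 7.67% lower. The median log2 fold change was then 0.26 for the B-type CDKs, 0.46 for cytokinesis and 0.01 for replication. PLEIADE, with a transcript of 2735 bases, had 0.46 under that correction, and MAD2, with 1074 bases, had 0.30.

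Annotated genes overlapped 16 of the 37 loci, 15 of them on the opposite strand, and whether the counting used strand is not given in the sources used here. The longest overlap was that of AUR2, which was not called, with AT2G25890 over 877 bases. KNOLLE overlaps NPQ1 (AT1G08550) over 464 bases on the opposite strand. NPQ1 measured 17.8, 16.4 and 16.7 CPM in the mutant-labelled libraries and 18.4, 15.9 and 17.9 CPM in WT with interleaved libraries (log2 fold change -0.04, edgeR adjusted p = 0.867). AUR3 overlaps GRF9 (AT2G45480) over 126 bases, and GRF9 had a log2 fold change of the other sign, -0.23 (edgeR adjusted p = 0.133). MAD2 overlaps AT3G25990 over 4 bases and CDKB2;1 overlaps AT1G76530 over 44 bases, the neighbour of CDKB2;1 being at most 1.26 CPM in any library. PLEIADE overlaps no annotated gene and shares no 50-base window with another transcript. CYCB1;2, which shares 12.2% of its windows with CYCB1;5 (AT1G34460), had fractional counts in 3 libraries, so its level is uncertain.

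In 7 lists of other cell cycle genes, 108 of 110 were tested, 1 was called higher (0.926%) and 1 lower (0.926%), against 4.89% and 4.07% of all genes tested, and the median log2 fold change was 0.07. At an unadjusted p under 0.05, 17 of the 108 were higher and 1 lower, against 11.3% and 10.5% of all genes tested. Of the same 108, limma voom called 10 higher and 1 lower, against 10.3% and 9.54% of all genes tested. These shares of all genes also stand beside the counts per list below. The gene called lower was KRP6 (AT3G19150), an inhibitor of CDKs, at 41.2, 50.1 and 46.5 CPM in the mutant-labelled libraries and 60.2, 53.2 and 59.8 CPM in WT (log2 fold change -0.33, edgeR adjusted p = 0.0317). All 3 mutant-labelled libraries lay below WT. KRP6 lost its call without mutant-labelled replicate 1 or 3 or WT replicate 3 and with scaling to library totals, with an edgeR adjusted p of up to 0.168 over the 16 alternatives.

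The gene called higher was AT5G10390, which encodes the replication-dependent histone H3.1, at 16.2, 17.5 and 17.7 CPM in the mutant-labelled libraries and 15.0, 13.0 and 12.0 CPM in WT (log2 fold change 0.36, edgeR adjusted p = 0.0441). It lost the call without replicate 2 or 3 of either group and with DESeq2, with an adjusted p of up to 0.196 over the 16 alternatives. The 5 H3.1 genes encode the same histone and can share reads, so their separate levels are uncertain. All 5 had a log2 fold change above 0 with an unadjusted p under 0.05, and their median was 0.32; DESeq2 called 1 of the 5 higher and limma voom all 5. Beside AT5G10390 the log2 fold changes were 0.32 for AT1G09200, 0.36 for AT3G27360, 0.27 for AT5G65360 and 0.28 for AT5G10400, with edgeR adjusted p from 0.0564 for AT1G09200 to 0.122 for AT5G10400. The 5 genes summed to 173.7, 204.4 and 212.9 CPM in the mutant-labelled libraries and 177.1, 152.8 and 148.4 CPM in WT, so that the libraries numbered 1 were close and the others apart.

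No other cyclin or CDKA gene was called by edgeR among 16 tested of 18, while 2 had an unadjusted p under 0.05. By DESeq2 0 were called, and by limma voom 1. CDKA;1 (AT3G48750), the main kinase of the cycle, averaged 35.0 ± 1.29 CPM in the mutant-labelled libraries and 30.6 ± 0.592 CPM in WT (log2 fold change 0.20, edgeR adjusted p = 0.126). CYCA3;2 (AT1G47210) differed by 0.49 on the log2 scale (edgeR adjusted p = 0.095), CYCD6;1 (AT4G03270) of 0.30 and CYCB2;3 (AT1G20610) of 0.18. Among the 16 CDK inhibitors the median was -0.01, with KRP1 (AT2G23430) at 0.08, KRP3 (AT5G48820) at 0.37, SIM (AT5G04470), which promotes endoreduplication, at -0.06, SMR1 (AT3G10525) at 0.27 and SMR4 (AT5G02220) at 0.71. None of these 5 was called.

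The 13 E2F, retinoblastoma-related and MYB3R regulators had a median log2 fold change of -0.10. None was called by edgeR, DESeq2 or limma voom, and none had an unadjusted p under 0.05. RBR1 (AT3G12280), which restrains E2F, averaged 40.9 ± 5.04 CPM in the mutant-labelled libraries and 45.0 ± 6.08 CPM in WT. E2FA (AT2G36010) was at -0.03, E2FB (AT5G22220) at -0.17, DEL2 (AT5G14960) at -0.30, MYB3R5 (AT5G02320) at -0.25 and MYB3R4 (AT5G11510), an activator of mitotic genes, at 0.19. In the 18 other replication genes the median was 0.01, with 0 called by edgeR or DESeq2, 1 by limma voom and 2 at an unadjusted p under 0.05. ORC6 (AT1G26840), of the origin recognition complex, had 0.45 and FAS2 (AT5G64630), of the chromatin assembly factor, 0.35, while the ribonucleotide reductase genes TSO2 (AT3G27060) and RNR2A (AT3G23580) had 0.14 and -0.13.

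The anaphase-promoting complex and its regulators gave a median of 0.07 over 11 genes, with 0 called by edgeR or DESeq2, 2 by limma voom and 3 at an unadjusted p under 0.05. CCS52A1 (AT4G22910), its activator in endoreduplication, was at 0.08, APC2 (AT2G04660) at -0.17, APC10 (AT2G18290) at 0.29, and the inhibitors OSD1 (AT3G57860) and UVI4 (AT2G42260) at 0.43 and 0.64. In 29 other mitosis and cytokinesis genes the median was 0.08, with 0 called by edgeR, DESeq2 or limma voom and 4 at an unadjusted p under 0.05, all higher. With length offsets 3 of them were called higher, beside 8.12% of all genes tested. With both libraries numbered 1 left out 5 were called lower, beside 15.8% of all genes tested. TES (AT3G43210), a kinesin related to HINKEL, had a log2 fold change of 0.22, the kinase ANP3 (AT3G06030) 0.29, NPSN11 (AT2G35190), a partner of KNOLLE in the cell plate, 0.20, and DRP1A (AT5G42080), a dynamin-related protein, 0.15. DRP1A averaged 183 ± 4.8 CPM in the mutant-labelled libraries and 164 ± 4.65 CPM in WT.

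Markers of the silique's tissues differed between the groups as well. Of 9 seed storage genes, 6 fell and 0 rose, and their summed level was 155200, 153300 and 164700 CPM in the mutant-labelled libraries and 202400, 192300 and 190300 CPM in WT. The cruciferin gene CRU3 (AT4G28520) was at -0.42 on the log2 scale (edgeR adjusted p = 0.0013). Of 7 endosperm genes, ZOU (AT1G49770) and ALE1 (AT1G62340) rose, with log2 fold changes of 0.63 and 0.86, and the imprinted PHE1 (AT1G65330) fell, at -1.14. Only 3 of the 7 had a log2 fold change above 0, and the median of the list was -0.008. The list summed to 70.2, 62.2 and 60.3 CPM in the mutant-labelled libraries and 43.4, 48.2 and 46.6 CPM in WT. The calls of ZOU, ALE1 and PHE1 held under all 16 alternatives.

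Among 6 embryo genes tested of 7, 3 had a log2 fold change above 0. LEC1 (AT1G21970) rose (log2 fold change 0.29), while ABI3 (AT3G24650) was at -0.37 without a call (edgeR adjusted p = 0.079). The DESeq2 test called 0 of the list higher and 1 lower. The list summed to 303.2, 274.3 and 263.3 CPM in the mutant-labelled libraries and 281.2, 325.2 and 339.4 CPM in WT. Of 7 seed coat genes the mucilage gene MUM4 (AT1G53500) rose (0.31), and the sums were 1375, 1258 and 1263 CPM in the mutant-labelled libraries and 1106, 1184 and 1177 CPM in WT. Of 5 pollen genes VGD1 (AT2G47040) and VGDH1 (AT2G47030) rose (0.62 and 0.52), the list having a median of 0.62, with sums of 27.0, 23.1 and 27.1 CPM in the mutant-labelled libraries and 16.0, 17.6 and 16.8 CPM in WT. Of 6 valve and margin genes FUL (AT5G60910) fell (-0.30), with sums of 339.9, 389.2 and 372.7 CPM in the mutant-labelled libraries and 364.4, 344.3 and 346.7 CPM in WT. The calls of LEC1, MUM4, VGDH1 and FUL were lost without 1 or more of the single libraries, as was that of the storage gene SESA3.

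Genes of the inflorescence and shoot meristem were at 13.6, 15.2 and 14.0 CPM in sum in the mutant-labelled libraries and 16.7, 15.4 and 15.9 CPM in WT, with 3 of 5, WUS, CLV3 and LFY, under 1 CPM in all 6 libraries and 0 of 2 called. No marker of any list was at 0 in all libraries, and the abundant storage RNA and the valve genes were those of a seed-filled silique. The endosperm, seed coat and pollen sums were higher in all 3 mutant-labelled libraries than in any WT library. For endosperm that sum rested largely on ALE1 and ZOU. The called cell cycle loci were also higher, and the storage sum was lower. The part of these markers in the result was not tested.

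**Figure D5:**
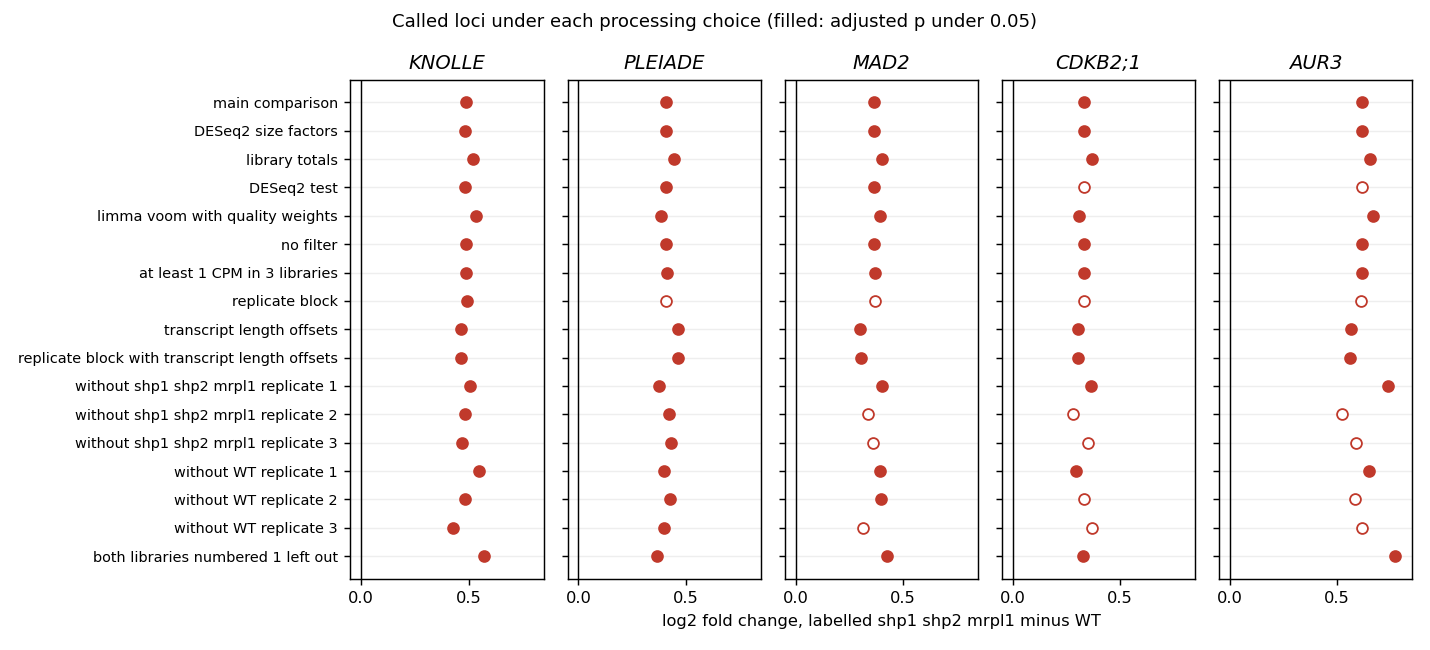
Log2 fold change (x axis, mutant-labelled minus WT) of the 5 called loci under the main comparison and 16 processing alternatives (rows), filled where the adjusted p was under 0.05. The values stay above 0 throughout, from 0.28 for CDKB2;1 to 0.77 for AUR3. KNOLLE is called in every row, and PLEIADE loses its call with the replicate block. The calls of MAD2, CDKB2;1 and AUR3 are lost with that block and without some libraries. CDKB2;1 and AUR3 also lose theirs under the DESeq2 test.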

How the data were processed

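The authors deposited estimated counts, 1 column per library over 27628 transcript identifiers; 2.95% to 3.47% of values per library were not whole (tolerance 1e-09), and they were rounded before testing. Named without their roles in the submitters' processing notes are HISAT2, featureCounts 1.6.3, Trimmomatic 0.39, FastQC 0.11.9 and DESeq2. The genome build, annotation, strand setting and the way reads were divided between loci are not given in the sources used here.

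Mutant-labelled minus WT was fitted over the whole table with edgeR 4.0.16 in R 4.3.3 (TMM scaling, default expression filter with a minimum count of 10 and a minimum total of 15, robust quasi-likelihood test, Benjamini-Hochberg adjustment over 20827 genes). Called means an adjusted p under 0.05. The SE is the absolute log2 fold change over the root of the F value, and 95% intervals use the test's total degrees of freedom. Levels are CPM after TMM scaling, and TPM from annotated transcript lengths. Counting error is largest, relative to level, for loci with few reads, such as CDC6.

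Identifiers were matched to TAIR10.1 RefSeq for names, lengths and overlaps (27417 by transcript, 3 by locus). The motif search read 250 bases before each annotated start on both strands. The promoter sequence of CDKB2;1 is not reported here. Alternatives were DESeq2 1.42.0 (test and size factors), library totals, limma 3.58.1 voom with quality weights, other filters, length offsets, a replicate block and leaving out libraries.

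All 37 loci are named; of each other list up to 4 genes with the smallest adjusted p are named, with CDKA;1, RBR1, E2FA, E2FB, MYB3R4, KRP1, SIM and CCS52A1. AT5G10400, SESA3, ABI3, WUS, CLV3 and LFY were named after their values were seen, and the marker lists are otherwise given by their called genes. From the other lists 3 genes whose reference annotation did not give the name (MPS1, BUB3.3 and TIO) were left out. The loci and lists were chosen with earlier results of these data known.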

Additional observations from a re-analysis of the deposited data

How the results depend on the processing

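Over the 37 loci and 16 alternatives, 566 of 592 log2 fold changes kept their side of the threshold and their direction where called. In all, 17 calls were lost, 9 gained and 0 reversed, and 35 uncalled values over 13 loci had the other sign. Most of the 592 belong to loci that the main comparison did not call, and all 17 losses fell on the 5 called loci. Of the 16 alternatives, KNOLLE was called in 16, PLEIADE in 15, MAD2 in 12, and CDKB2;1 and AUR3 in 10 each. The scaling alternatives moved the median of all genes tested by less than 0.1 (log2 scale), to at most 0.03 with library totals. The main comparison called 5 loci higher and 0 lower; DESeq2's test called 3 higher, limma voom 1 lower and, with both libraries numbered 1 left out, 8 were higher and 1 lower. Leaving out single libraries gave 2 to 6 higher and 0 lower. For all genes (1018 higher, 847 lower) limma voom gave 2137 and 1986, length offsets 1683 and 1590, both libraries numbered 1 left out 3191 and 3301, and single libraries left out 578 to 1534 higher and 426 to 1468 lower. In the other cell cycle lists (1 higher, 1 lower) library totals gave 2 and 0, limma voom 10 higher, no filter 2 higher, length offsets 7 higher, both libraries numbered 1 left out 9 and 9, and single libraries left out 0 to 7 higher and 0 to 2 lower. The cause of these shifts was not tested. Same-numbered libraries did not deviate together (correlations -0.36, -0.19 and -0.12). These values cannot decide whether the numbers pair the samples, because replicate 1 stood apart in each group and deviations within 3 libraries are not independent. With a replicate block 1 locus (KNOLLE) was called higher and 0 lower, 475 genes were higher and 320 lower, and 0 and 0 in the other lists. With 3 libraries a group and AUR3 at 61 to 103 reads, small changes in rare transcripts such as CDC6 were not detectable at this depth.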
